A study of Mus musculus with 2 samples.

Results

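Contacts that join the lower and the upper section of the distal VH region of the mouse antibody heavy chain locus (Igh) were examined in 5C maps of activated B cells. A pair of HindIII fragments belonged to this set when the midpoint of 1 fragment lay between 115.82 and 116.60 Mb on chromosome 12 (mm9) and that of the other between 116.60 and 117.35 Mb, where the probed span ends, with the midpoints at least 10 kb apart. The rule used positions only. It selected 643 pairs out of 10415 Igh pairs at that distance or more, from 10584 pairs in all. In 320 of them the lower fragment carried the forward primer, and in 323 the upper fragment did.

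5C detects chromatin contacts by crosslinking, cutting with HindIII, ligating ends that lie close together and amplifying each ligation product with a forward and a reverse primer, so that every forward-reverse pair has 1 count. Both libraries came from spleen B cells of C57Bl/6 mice, sorted as CD43- (resting B cells lack this surface protein) and kept for 40 h with LPS and IL4, which together drive division and class switching. They form 1 group of 2 replicates, called biological in the series description, with no other genotype, stimulus or time point, and whether each came from 1 animal or a pool was not given. No comparison between conditions was possible, and values are given per replicate.

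The distal VH region holds the largest VH family, Ighv1 (J558), with members of Ighv8 between them, and it lies at the end of Igh farthest from the D, J and constant segments. In pro-B cells, where VH segments are joined to DJ, the locus contracts and folds into loops, which brings distal segments near the DJ end. Mature B cells have already assembled a heavy chain gene. In the GRCm38.p6 gene table of RefSeq, the Ighv1 family had 92 entries (60 segments and 32 pseudogenes) and Ighv8 had 16 (10 segments and 6 pseudogenes). That table is on another assembly and no mm9 sequence or annotation was used here. Fragments are therefore given by their names in the files (FOR for a forward and REV for a reverse primer, with the fragment's number) and their mm9 position, and none was assigned to a VH segment, an exon or an intergenic stretch.

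The lower section was probed at 33 fragments (16 forward, 17 reverse) with a median length of 2505 bp, which covered 14.9% of it. Its longest unprobed stretch, 165 kb, ran from 116000829 to 116166284. The upper section was probed at 39 fragments (19 forward, 20 reverse) with a median length of 2952 bp and 18.6% covered. Distances within the 643 pairs ran from 50.3 kb (FOR_624 with REV_610) to 1523 kb (FOR_419 with REV_851), with a median of 913 kb. Over all 10584 Igh pairs, those under 10 kb apart included, the counts added up to 14503618 in replicate 1 and 17658603 in replicate 2. Shares of Igh counts below are of these totals, which hold no control pairs outside Igh.

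Contacts between the sections were detected nearly everywhere, but most pairs held few counts, and the 3 pairs described below as called held a large share of the total. In replicate 1, 608 of 643 pairs had a count above 0, and in replicate 2, 642 did: the same 608 pairs (94.6%) were above 0 in both, against 96.5% of all tested pairs. The median pair held 27 counts in replicate 1 and 67 in replicate 2, against 40 and 71 over all tested pairs. The 35 pairs at 0 in replicate 1 had a median of 13 and at most 92 counts in replicate 2, so a 0 there does not show that the contact was absent. A count of 0 allows up to 3 counts, or 2.07e-05% of all Igh counts in replicate 1, for counting error only. FOR_429, in the lower section, took part in 7 of the 35 pairs and REV_528 in 6. In the upper section, FOR_702 and FOR_820 took part in 5 each.

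Together the 643 pairs held 75163 counts in replicate 1, 0.518% of all Igh counts (95% Wilson interval 0.515 to 0.522). In replicate 2 they held 385922 counts, 2.19% (2.18 to 2.19). Over all tested pairs the share was 21.3% and 31.5%, 1.48 times higher in replicate 2. That of the 643 pairs was 4.22 times higher, which gives 1.35 ± 1.18% (SD, n = 2), a spread nearly as large as the mean. Without FOR_556 with REV_705 and FOR_702 with REV_552 the shares were 0.465% and 1.09%, still 2.34 times apart, and without FOR_685 with REV_606 as well they were 0.347% and 0.936%. Single pairs moved the same way: 516 of 643 (80.2%) took a higher share in replicate 2, against 66.9% of all tested pairs, with a median factor of 1.99 against 1.44. A difference over 4-fold occurred in 189 pairs (29.4%) toward replicate 2, where 20.2% of all tested pairs did so. Toward replicate 1 it occurred in 4 (0.622%), where 1.16% did. Across the 643 pairs, log2 counts of the replicates correlated with r = 0.778 (Pearson) and rho = 0.778 (Spearman), as a description over pairs that share fragments and primers.

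**Figure D1:**
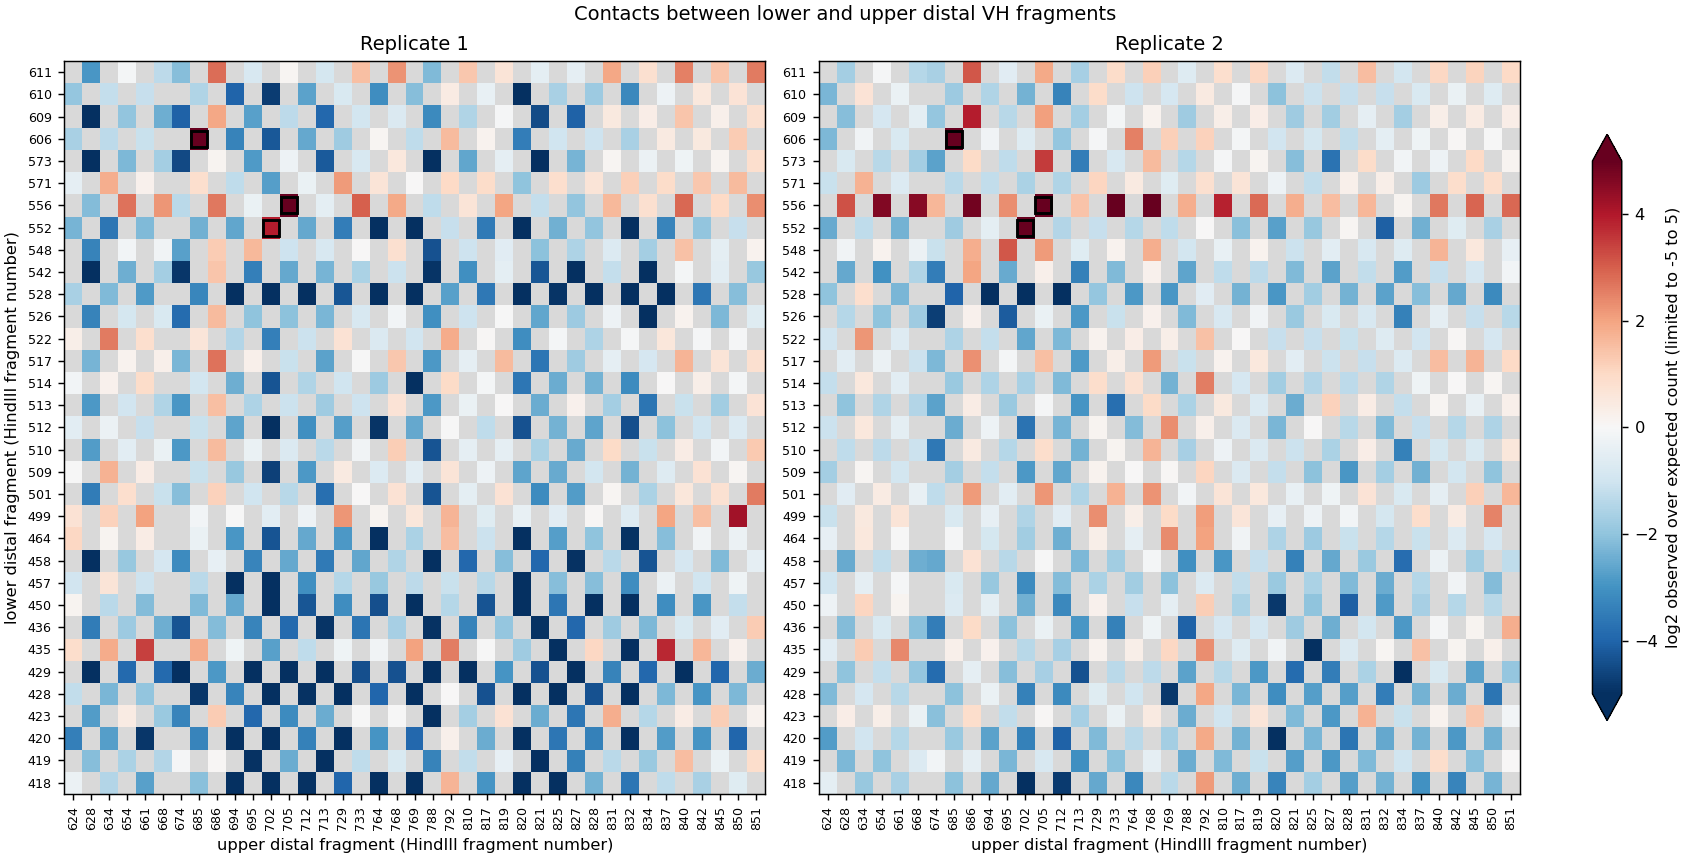
Map of the log2 observed over expected ratio for each of the 643 pairs, upper fragments on the x axis and lower fragments on the y axis by fragment number, in their order along the chromosome, for each replicate. Grey cells join primers of the same type and hold no value. FOR_556 stands out as a line of raised pairs in both panels, and black squares mark the 3 pairs called in both replicates.

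To set aside distance, each count was divided by the count expected at its distance, read from a lowess curve through all tested Igh pairs (observed over expected ratio). A typical pair between the sections lay below the curve: the median ratio was 0.353 in replicate 1 and 0.513 in replicate 2 (0.433 ± 0.113, SD, n = 2), against 0.357 and 0.404 over all tested pairs. The mean ratio was 1.05 and 2.25, 0.938 and 1.29 without the first 2 pairs named above, and 0.856 and 1.22 without all 3. A ratio above 1 in both replicates occurred in 117 pairs (18.2%), where 15.7% of all tested pairs did so. A ratio above 2 in both occurred in 48 (7.47%), where 5.71% did, and above 5 in both in 11 (1.71%), where 1.07% did. Medians close to those of the whole locus thus sat beside a few very high pairs.

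A ratio still carries the overall level of its 2 fragments, to which the efficiency of their primers belongs. The median ratio of a fragment over its pairs ranked with its primer factor, the level of that primer in Igh pairs outside the 643: rho was 0.879 in replicate 1 and 0.833 in replicate 2 over the 33 lower fragments, and 0.924 and 0.878 over the 39 upper ones. Primer factors ran from 0.0535 to 4.08 in replicate 1 and from 0.184 to 3.79 in replicate 2. A factor cannot tell the efficiency of a primer from the contact level of its fragment elsewhere in Igh. Ratios were also divided by both primer factors (primer-corrected ratio). The median corrected ratio of the 643 pairs was 1.001 in replicate 1 and 0.889 in replicate 2, against 0.756 and 0.786 over all tested pairs. With factors taken from all pairs, members included, it was 0.843 and 0.758, against 0.724 and 0.759, so the difference from the whole locus was seen in replicate 1 alone. A corrected ratio above 2 in both replicates occurred in 66 pairs (10.3%), where 3.54% of all tested pairs did. With factors from all pairs it occurred in 36 (5.6%), where 3.34% did. The first factors were fitted to the pairs outside the 643, whose mean corrected ratio is 1 by construction, and not to the 643. Only the second comparison treats both alike.

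Counts fell with distance between the sections, also beyond 1000 kb, where those of other Igh pairs fell no further. The median count per pair was 225 in replicate 1 and 633 in replicate 2 at 10 to 250 kb (19 pairs), 67 and 206 at 250 to 500 kb (77 pairs), and 39 and 125 at 500 to 750 kb (121 pairs). It went on to 26 and 62 at 750 to 1000 kb (172 pairs) and 14 and 34.5 beyond 1000 kb (254 pairs). Each step was downward in both replicates. Other Igh pairs had medians of 26 and 48 at 750 to 1000 kb, and of 28 and 49 beyond 1000 kb. On log10 scales the mean count per distance bin had a slope against distance of -1.14 in replicate 1 and -1.56 in replicate 2 (-1.35 ± 0.30, SD, n = 2), against -1.39 and -1.52 over all tested pairs.

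**Figure D2:**
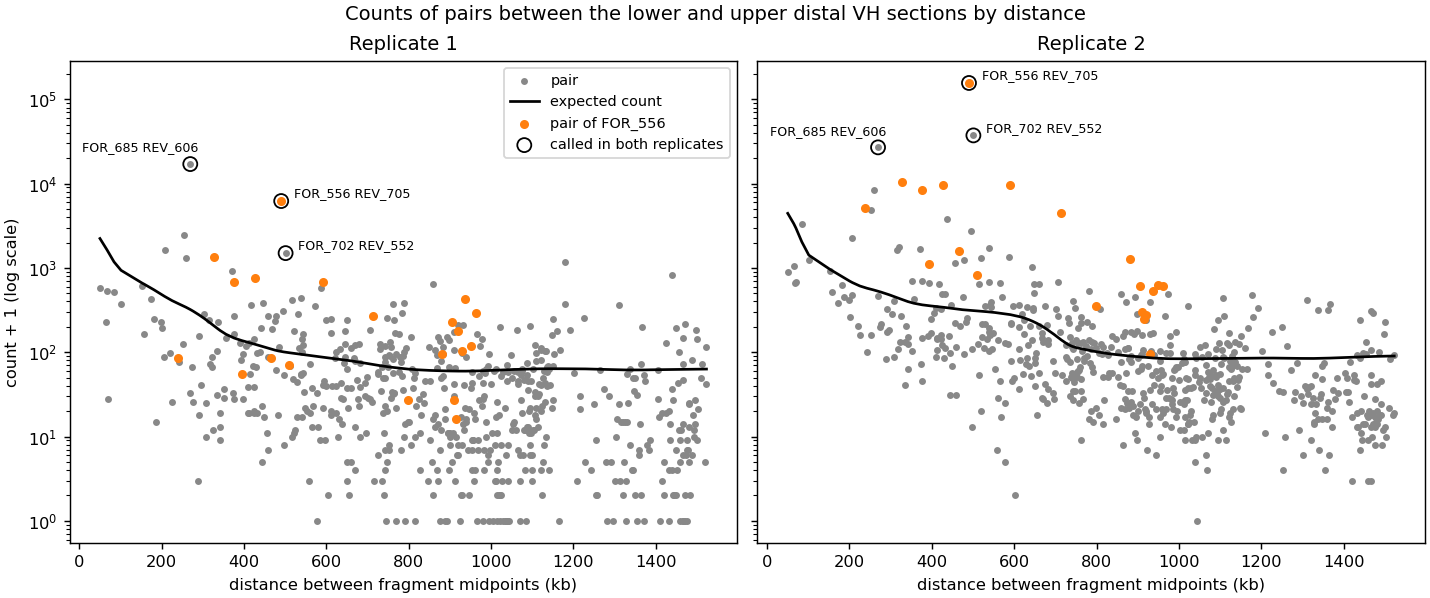
Count plus 1, on a logarithmic axis, of each of the 643 pairs against midpoint distance in kb for each replicate, with the expected count as a line and called pairs circled. Most pairs lie under the line, whose level is a mean, and the called pairs lie far above it at 270, 490 and 501 kb.

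At matched distance the contacts between the sections stood above the rest of Igh below 750 kb and under it beyond 1000 kb, before primer correction. At 10 to 250 kb the median ratio of the 19 pairs was 1.32 and 2.46 times that of other Igh pairs, and at 500 to 750 kb that of the 121 pairs was 1.11 and 1.91 times. In the first of these bins the 19 pairs lay farther apart on average, 159 kb against 121 kb, so distance was not closely matched there. At 750 to 1000 kb the replicates differed in sign, with 0.989 and 1.37 times. At 250 to 500 kb the median ratio was 0.522 in replicate 1 and 0.508 in replicate 2, against 0.296 and 0.256 for the 1201 other Igh pairs, or 1.76 and 1.99 times higher. After primer correction this difference shrank to 1.48 and 1.17 times, and with factors from all pairs to 1.08 and 0.958. The corrected values were 0.896 and 1.001 times at 10 to 250 kb and 1.52 and 1.16 times at 500 to 750 kb, or 0.759 and 0.86, and 1.10 and 1.03, with factors from all pairs. Beyond 1000 kb the median ratio was 0.231 and 0.411, against 0.451 and 0.581 for 2303 other pairs, or 0.511 and 0.708 times their level. The corrected median there was 0.749 and 0.876, against 0.935 and 1.06, or 0.801 and 0.83 times their level. With factors from all pairs it was 0.815 and 0.761 times. The lower level of the longest pairs was thus in the same direction in both replicates and all 3 versions. An exact sign-flip permutation test of 2 within-replicate differences cannot go below a two-sided p of 0.5, so these differences are given as values.

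Against pairs inside each section the picture depended on distance and replicate. At 500 to 750 kb the corrected median of the 121 pairs between the sections was 1.46 in replicate 1 and 0.748 in replicate 2. The 44 pairs inside the lower section had 0.873 and 0.518, so the pairs between the sections were 1.67 and 1.44 times higher. The 69 pairs inside the upper section had 1.40 and 0.503, a factor of 1.04 and 1.49. The last comparison changed sign between the replicates without correction, with 0.630 and 1.73, and with factors from all pairs, with 0.794 and 1.37. At 250 to 500 kb the corrected factors were 1.49 and 0.964 against the lower section and 1.05 and 1.44 against the upper, the latter 0.939 and 1.29 with factors from all pairs. At 10 to 250 kb they were 1.05 and 1.0002 against the lower section, and 0.613 and 0.896 against the upper. In that bin the mean distance was 159 kb between the sections, 118 kb inside the lower and 106 kb inside the upper.

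**Figure D3:**
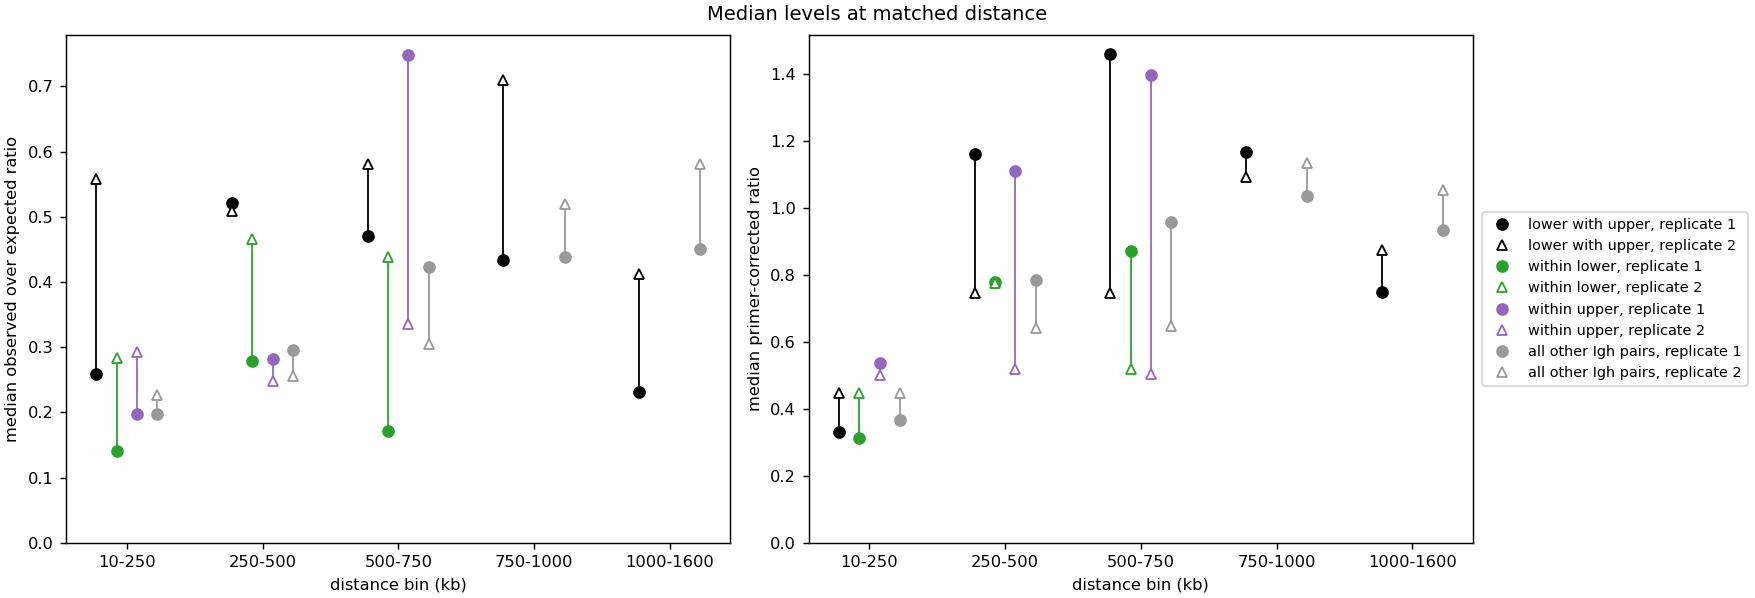
Median observed over expected ratio (left) and median primer-corrected ratio (right) in 5 distance bins for pairs between the sections, inside the lower section, inside the upper section and all other Igh pairs. Each point is 1 replicate and the line joins the 2 replicates, which in several bins lie farther apart than the groups do.

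Of the 643 pairs, 3 (0.467%) were called in both replicates, where 0.24% of all tested Igh pairs were (25 of 10415). A call meant an adjusted p under 0.01 in each replicate, from a Weibull fit to the distance-corrected counts of all pairs with Benjamini-Hochberg adjustment. In replicate 1 alone 5 pairs (0.778%) were called, where 0.432% of all tested pairs were, and in replicate 2 alone 7 (1.09%), where 0.374% were. At an unadjusted p under 0.05 in both, 17 pairs (2.64%) passed, where 1.59% did. The 3 pairs called in both were FOR_556 with REV_705, FOR_702 with REV_552 and FOR_685 with REV_606. Those called in 1 replicate alone, named after their values were seen, were FOR_661 with REV_435 and FOR_850 with REV_499 in replicate 1, and in replicate 2 FOR_556 with REV_810, REV_819, REV_845 and REV_851.

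FOR_556 (chr12:116385510-116386658) with REV_705 (chr12:116875021-116877871), 490 kb apart, held 6216 counts in replicate 1 and 156364 in replicate 2. Its share of all Igh counts was 20.7 times higher in replicate 2. This pair alone made up 8.27% of the counts between the sections in replicate 1 and 40.5% in replicate 2. It stood 61.5 and 499 times above the expected count, a ratio of 280 ± 310 (SD, n = 2). The call was shared, but the size was not fixed by these replicates, whose difference exceeded the mean. Corrected for primers, with factors in which the pair itself had no part, the ratios were 185 and 132, and with factors from all pairs 41.6 and 32.9.

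FOR_702 (chr12:116864979-116868374) with REV_552 (chr12:116364360-116366864), 501 kb apart, held 1498 and 37357 counts. Its ratio was 15.1 and 120, and its share of all Igh counts was 20.5 times higher in replicate 2. Both its primers were weak elsewhere in Igh: the factor of FOR_702 was 0.0535 in replicate 1 and 0.234 in replicate 2, and that of REV_552 was 0.0784 and 0.184. Division by such small factors gave corrected ratios of 3603 and 2793, and factors from all pairs gave 82.9 and 80.7. This 1 pair set the mean corrected ratio of the 643 pairs almost alone: it was 7.50 and 5.98, and 1.62 and 1.44 without it and FOR_556 with REV_705.

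FOR_685 (chr12:116809861-116811073) with REV_606 (chr12:116539430-116542358), 270 kb apart, held 17063 and 26940 counts. It was the pair with the most counts in replicate 1, with 22.7% of those between the sections, and had 6.98% in replicate 2. Its ratio was 53.3 and 50.9, which gives 52.1 ± 1.66 (SD, n = 2). Of the 3 called pairs it was the one whose uncorrected ratios lay close together between replicates. The corrected ratio was 132 and 71.6, in relative terms farther apart than in the other called pairs. With factors from all pairs it was 40.3 and 32.3.

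The calls depended on how primers were treated. With counts corrected by factors from outside the 643 pairs, 2 pairs (0.311%) were called, where 0.259% of all tested pairs were: FOR_702 with REV_552 and, named after its values were seen, FOR_828 with REV_552 at only 15 and 91 counts. With factors from all pairs, 4 (0.622%) were called, where 0.317% were. These were the 3 pairs above and FOR_548 with REV_695.

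Each called pair stood far above the pairs next to it. Along FOR_556, the 3 probed reverse fragments on either side of REV_705 had ratios from 0.395 to 7.94 in replicate 1 and from 2.65 to 34.5 in replicate 2, at least 7.75 and 14.5 times below the called pair. Along REV_705 the neighbours of FOR_556 were at least 58.2 and 43.8 times below it. The neighbours of FOR_702 with REV_552 were at least 102 and 189 times below it along the forward fragment and 70.1 and 167 times below along the reverse one. For FOR_685 with REV_606 these factors were 29.5 and 128, and 116 and 57.8.

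The called pairs also exceeded contacts of the same fragments with their next neighbours, which lie far closer. FOR_556 with REV_552, 20.5 kb apart, held 43 and 1628 counts, and FOR_556 with REV_571, 48.9 kb apart, 3983 and 14749. REV_705 held 30 and 739 counts with FOR_702, at 9.77 kb. FOR_702 held 65 and 1866 with REV_695, at 15.0 kb, and REV_552 held 91 and 1428 with FOR_548, at 8.99 kb. Each of these is below the called pair of the same fragment in the same replicate. FOR_556 with REV_705 was the highest of all 108 pairs of FOR_556 in both replicates, and among the 98 pairs of REV_705 it was exceeded by 1 pair in replicate 1 and by 0 in replicate 2. FOR_702 with REV_552 was the highest of all pairs of either fragment. FOR_685 with REV_606 was exceeded only by FOR_685 with the adjoining REV_686, at 54511 and 70293 counts and 3.30 kb. These neighbour pairs were listed by position, and those within a section or under 10 kb are not among the 643.

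**Figure D4:**
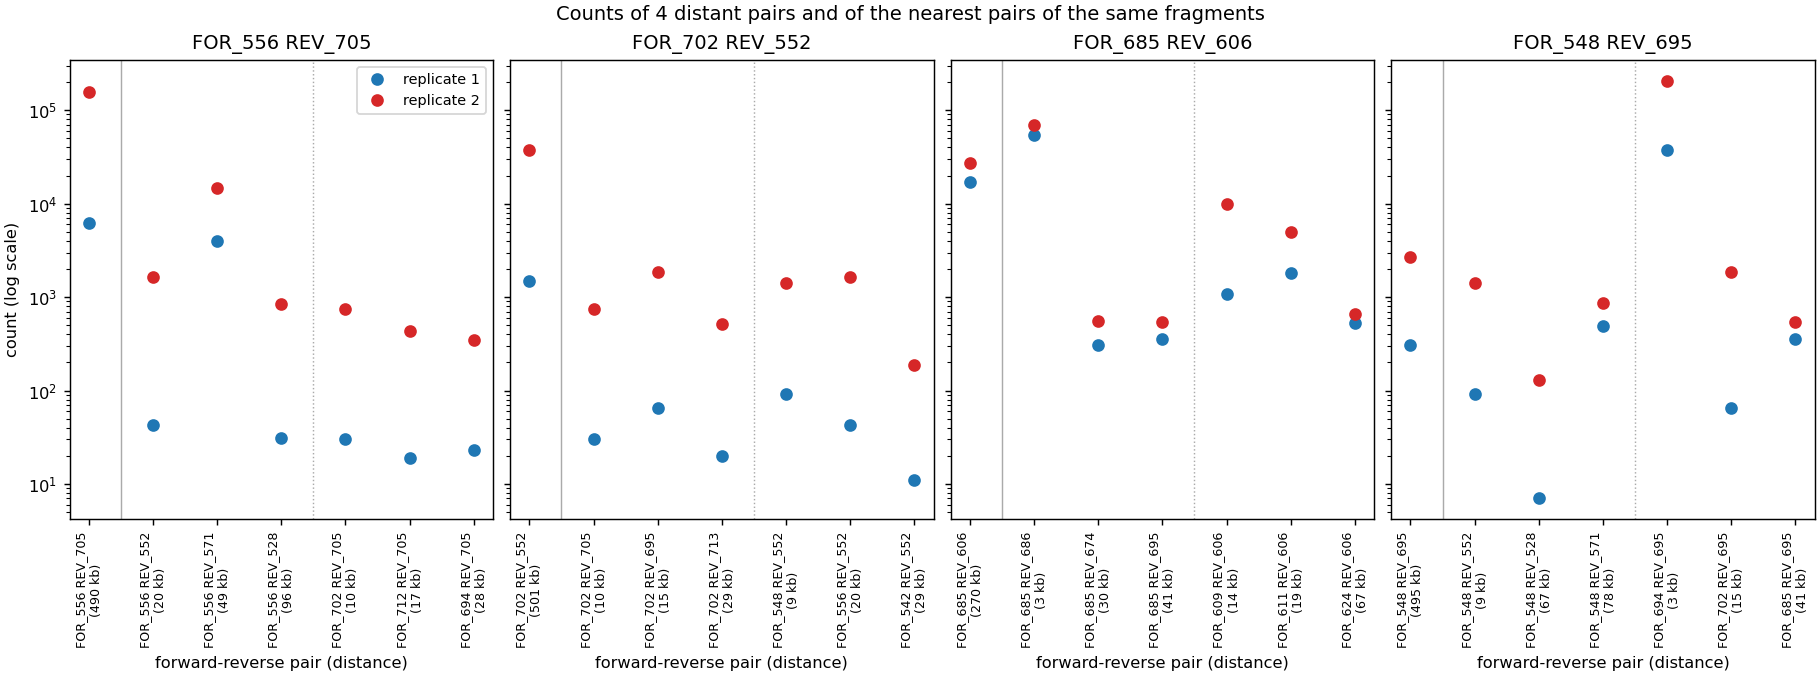
Counts, on a logarithmic axis, of each called pair and of FOR_548 with REV_695, beside the counts of the same fragments with their nearest probed partners, for both replicates. Each called pair stands above the near pairs in both replicates, apart from FOR_685 with REV_686, while FOR_548 with REV_695 does not.

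Called and high pairs lay in a parallel arrangement, which was noticed after the values were seen. FOR_548 (chr12:116356077-116357168), REV_552 and FOR_556 are consecutive probed fragments that span 30.6 kb. REV_695 (chr12:116851010-116852283), FOR_702 and REV_705 are consecutive probed fragments that span 26.9 kb. Their highest pairs joined the first of the lower stretch to the first of the upper (FOR_548 with REV_695, 495 kb), the second to the second (REV_552 with FOR_702, 501 kb) and the last to the last (FOR_556 with REV_705, 490 kb). Between the stretches, REV_552 and FOR_702 had no other partner of the opposite primer type, so only the first and last fragments could have paired otherwise. HindIII fragment numbers within these pairs differed by 147, 150 and 149. Whether the 2 stretches share sequence, so that a primer could match in both, was not tested, and the counts of these pairs, those at 490 and 501 kb included, are to be read with that limit.

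FOR_548 with REV_695 held 307 counts in replicate 1 and 2710 in replicate 2, ratios of 3.07 and 8.69, and it was not called on uncorrected counts. Its corrected ratio was 30.7 in replicate 1 and 30.5 in replicate 2, and 16.3 and 17.3 with factors from all pairs. Forward and reverse primers allow 5 pairs between the 2 stretches, and all 5 had corrected ratios above 2 in both replicates, from 2.47 to 3603 in replicate 1 and from 3.00 to 2793 in replicate 2. They held 10.8% of the counts between the sections in replicate 1 and 51.7% in replicate 2. With the next forward and the next reverse fragment added on each side of the upper stretch the block had 11 pairs, all 11 above 2 in both replicates, with 12.4% and 54.8% of the counts. With factors from all pairs 4 of 5 and 8 of 11 were above 1 in both. The block was drawn around known high pairs, so these counts describe it and support nothing further.

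Outside its called pair, FOR_556 was raised across most of the upper section. Without REV_705, its pairs there held 7.38% of the counts between the sections in replicate 1 and 14.6% in replicate 2. With it, the 20 pairs held 15.7% and 55.1%. REV_705 included, the ratio was above 1 in 13 pairs in replicate 1 and in 20 in replicate 2, 13 in both. The median ratio was 2.53 and 7.23, and over its 88 other Igh pairs 0.63 and 2.23. Without REV_705 the mean ratio was still 2.99 and 11.5.

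After primer correction the profile of FOR_556 had a break inside the upper section, seen after its values were examined. With the 12 reverse fragments from REV_628 to REV_810, 239 to 881 kb away, the corrected ratio was above 2 in both replicates for 11 pairs, and the exception, REV_628, had 1.29 and 5.06. With the 8 reverse fragments from REV_819 to REV_851, 905 to 962 kb away, 0 pairs were above 2 in both, and the median was 1.76 in replicate 1 and 1.57 in replicate 2 against 3.71 and 4.78 for the first 12. In replicate 1 the groups overlapped, with values up to 3.17 among the 8. With the 17 reverse fragments of its own lower section, 20.5 to 562 kb away, 0 were above 2 in both and the median was 0.71 and 0.641. With the 71 reverse fragments below the lower section, 3 were, and the median was 0.865 and 0.995. With factors from all pairs the levels were lower, 1.46 and 2.20 for the first 12 and 0.288 and 0.284 for the lower section, in the same order.

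Among the 12, beside REV_705, the highest corrected ratios were with REV_733 (chr12:116972605-116981159), REV_654 (chr12:116710435-116715742) and REV_668 (chr12:116760227-116762407). REV_733, at 591 kb, held 686 and 9594 counts, with corrected ratios of 11.97 and 11.3. REV_654, at 327 kb, held 1363 and 10397 counts, with 6.47 and 9.17. REV_668, at 375 kb, held 671 and 8472 counts, with 5.52 and 8.74. In all 3 the uncorrected ratio was 3.70 to 5.09 times higher in replicate 2, and the corrected ratios of the replicates lay closer together.

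**Figure D5:**
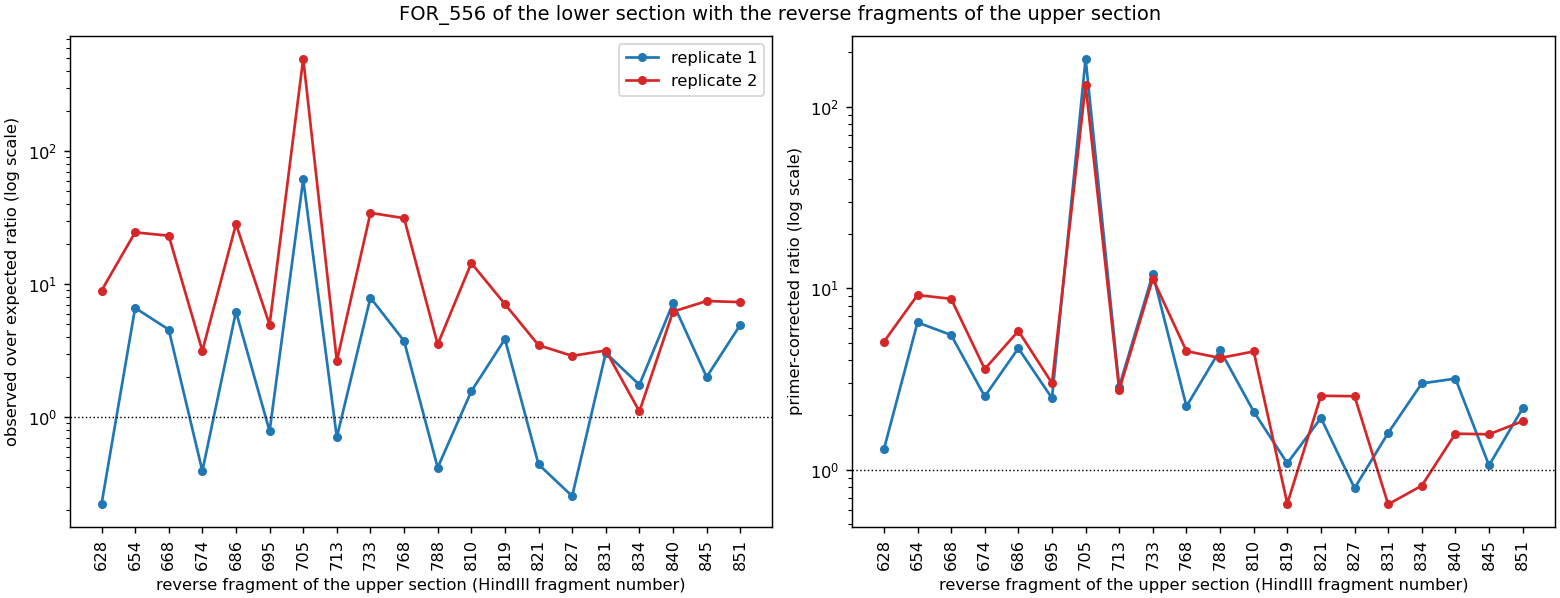
Observed over expected ratio (left) and primer-corrected ratio (right) of FOR_556 with each of 20 reverse fragments of the upper section in their order along the chromosome, on logarithmic axes, for both replicates. REV_705 is the highest point in both panels. After correction the 8 fragments from REV_819 onward lie lower than the 12 before them in replicate 2, and overlap them in replicate 1.

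Other pairs were also among the 10 with the highest mean corrected ratios and 30 or more counts in both replicates. FOR_573 (chr12:116436677-116439886) with REV_705, at 438 kb, held 99 counts in replicate 1 and 3829 in replicate 2, with ratios of 0.835 and 11.4 and corrected ratios of 5.03 and 11.9. FOR_764 (chr12:117080054-117081675) with REV_606, at 540 kb, held 99 and 1740, with ratios of 1.06 and 5.81 and corrected ratios of 6.28 and 7.88. FOR_419 (chr12:115824507-115826299) with REV_674 (chr12:116778848-116781489), at 955 kb, held 57 and 77 counts. It had ratios of 0.969 and 0.922, so its corrected ratios of 8.97 and 4.54 rest on the division by its primer factors. None of these was called.

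By fragment, several of the highest means rested largely on 1 partner. Among lower-ranked fragments with means above 1 in both replicates, some stayed above 1 without their top partner and some did not. In the lower section the highest mean ratios were those of FOR_556 (5.92 and 35.9), REV_552 (0.953 and 6.73) and REV_606 (3.54 and 3.77). Without the top partner FOR_556 still had 2.99 and 11.5, while REV_552 fell to 0.165 and 0.41, and REV_606 to 0.779 and 1.15. In the upper section REV_705 had 4.20 and 33.7, and 0.378 and 2.64 without its top partner. FOR_702 had 0.969 and 7.29, and 0.0839 and 0.213 without it. REV_686 (chr12:116811074-116816454) had 2.82 and 5.10, and still 2.55 and 3.55 without its top partner. Its ratios were above 1 in both replicates in 12 of its 16 pairs. Its corrected median was 2.25 and 1.43.

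The lowest fragments were low in both replicates. In the lower section FOR_429 (chr12:115855285-115858063) had mean ratios of 0.0492 and 0.267, REV_528 (chr12:116286772-116293346) 0.0769 and 0.266, and REV_420 (chr12:115826300-115827627) 0.137 and 0.392. In the upper section FOR_820 (chr12:117292549-117295273) had 0.112 and 0.341, FOR_712 (chr12:116891916-116894434) 0.244 and 0.211, and REV_713 (chr12:116894435-116897428) 0.223 and 0.368. Their primer factors were low as well, at 0.0541 to 0.296 in replicate 1 and 0.294 to 0.361 in replicate 2. Among all 33 lower fragments the corrected median was above 2 in both replicates for 3, FOR_548 (3.19 and 2.82), REV_552 (2.47 and 2.94) and FOR_556 (2.50 and 3.29), and for 0 of 39 upper fragments. With factors from all pairs REV_552 fell to 0.212 and 0.318, FOR_548 had 1.85 and 1.88 and FOR_556 had 1.03 and 1.49, so these levels rest on the choice of factors.

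Across the 2 sections, each divided into 3 stretches, the lower stretch next to the border had the highest mean ratios. Its 3 cells had 1.26 to 2.95 in replicate 1 and 1.48 to 18.5 in replicate 2, and the other 6 cells 0.175 to 1.09 and 0.432 to 1.06. Without FOR_556 its cell with the farthest upper stretch had 1.10 and 0.953, no longer above the others in replicate 2. Its cell with the nearest upper stretch held the called FOR_685 with REV_606. That cell had a mean of 2.26 and 4.22 but a median of 0.354 and 0.594. The lower stretch from 116.34 to 116.60 Mb with the upper stretch from 116.85 to 117.10 Mb (41 pairs, the cell with both pairs near 500 kb) had a mean ratio of 2.95 in replicate 1 and 18.5 in replicate 2. Without those 2 pairs it was 1.13 and 3.56. The median was 0.578 and 1.11 with all 41 pairs, and 0.567 and 0.961 without the 2. The lowest cell joined the lower stretch from 115.82 to 116.08 Mb to the same upper stretch (53 pairs), with a mean ratio of 0.175 and 0.432 and a median of 0.0803 and 0.314. After primer correction the medians of these cells were 1.71 and 1.20 against 0.732 and 0.896. The order of these 2 cells was thus the same in both replicates and after correction, with a smaller difference after it. The second was not the lowest after correction in replicate 2. There the stretch from 116.60 to 116.85 Mb had 0.614 with that from 116.08 to 116.34 Mb. With the lower stretch next to the border it had 0.742, and 0.885 in replicate 1.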

How the data were processed

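Per the file headers, each deposited table holds counts of sequenced ligation products per forward-reverse primer pair, after a step named transpurge by the authors, with mm9 positions in the fragment names. Per the submitters' processing notes, Novoalign and mm9 were used, with versions not given in the sources used here. Both tables hold 98 forward and 108 reverse Igh fragments. The gene desert control pairs were not analysed here.

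Expected counts came from lowess (span 0.3, log10 midpoint distance), fitted to each replicate over all 10415 Igh pairs at least 10 kb apart, and SDs from the same smoothing of squared residuals, both with a floor of 1. Scaled residuals (z) were shifted and fitted with a Weibull distribution, whose upper tail gave p, adjusted over all pairs to q (Benjamini-Hochberg). A pair was called at q under 0.01 in both replicates. Primer factors came from 50 rounds of dividing ratios by the mean of each forward and reverse primer, over pairs that do not join the sections. Alternative factors used all pairs or all pairs not called.

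The pairs, sections and fragments were chosen with earlier results of these data known. Named are the pairs called in both replicates, the 10 with the highest mean primer-corrected ratio among those with 30 or more counts in both, the 3 highest and 3 lowest fragments of each section by mean ratio, and the highest and lowest of 9 cells, with any others marked in the text. Alternatives were other spans, thresholds, factors, borders and distance minimums, the log2 scale with a pseudocount of 1, each replicate alone and leaving out 2 pairs. Leaving out FOR_556, or all 3 called pairs, was chosen after seeing the data. Calling on counts and with factors from all pairs was also run on simulated data, but not calling with factors from outside the set. The outcome is not given here, and no result rests on it. Totals of 14503618 and 17658603 counts make intervals for shares narrow, and intervals and floors cover counting error only. Under 30 counts were held by 336 of 643 pairs in replicate 1 and by 178 in replicate 2. Python 3.11.15, NumPy 2.4.6, SciPy 1.17.1, pandas 2.3.3, statsmodels 0.14.6 and matplotlib 3.10.9 were used.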

Additional observations from a re-analysis of the deposited data

How the results depend on the processing

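The mean corrected ratio of the 643 pairs, 6.74 over both replicates, was 5.60 at a span of 0.1, 1.53 without FOR_556 with REV_705 and FOR_702 with REV_552, 1.37 without these and FOR_685 with REV_606 (a choice made after seeing the data), 1.29 with primer factors from all pairs and 4.90 with factors from pairs not called. The median corrected ratio, 0.945, was 0.80 with factors from all pairs. On the log2 scale 0 pairs were called in both replicates in place of 3 (Weibull fit: replicate 1 had 0 and replicate 2 had 8, while 20 passed an unadjusted p under 0.05 in each, as did 2.41% of all tested pairs). With 1 replicate alone, where no overlap was needed, 5 to 7 were called, and under the other alternatives 2 to 4. FOR_702 with REV_552 lost its call at spans of 0.1 and 0.6 and on the log2 scale. FOR_556 with REV_705 and FOR_685 with REV_606 lost theirs on the log2 scale and with counts corrected by factors from outside the set. The cause was not tested. Of the changes run to these counts, means, medians, the share and the slope, 58 were counted as unchanged, mostly for lying within the spread between replicates. With 1 replicate alone a mean, median, share or slope always lies within that spread, so those changes test nothing. Reversal of direction was not scored. The median corrected ratio, 0.945, rose above 1 with the lower of the alternative borders (1.02) and with replicate 1 alone (1.001), both counted as unchanged. No paired analysis was possible because both replicates form 1 group, with no other group to pair them with. Differences within each replicate are given as values. With 2 replicates and low counts in many pairs, differences of the size of the spread between replicates were not detectable.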
